A study of Mus musculus with 36 samples.

Results

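Ebf1, Pax5, Pou2af1 and Foxo1 are 4 genes for transcription factors of B cell development, and their levels were followed over 36 one-colour mouse arrays of 8 sorted blood cell populations. They were measured by all probe sets (groups of array probes read as 1 value) that the annotation assigns to exactly 1 of these genes. This gave 12 of the 45037 probe sets tested, and 4 of the 18193 genes with a probe set of their own. Ebf1 has 5 probe sets, Pax5 2, Pou2af1 1 and Foxo1 4. Each gene is given by its leading probe set, the one with the highest mean over all 36 arrays: 1439789_at for Ebf1, 1421765_at for Pax5, 1416957_at for Pou2af1 and 1416983_s_at for Foxo1. The other probe sets are described beside them.

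The B lineage programme starts in lymphoid progenitors of the marrow, where Ebf1, acting with the E protein Tcf3 and with Foxo1, opens and activates early B cell genes. Ebf1 in turn activates Pax5, which keeps the B cell genes on and shuts off genes of other lineages, so that Pax5 marks commitment. Foxo1 is a forkhead factor held out of the nucleus by growth factor signalling, and it acts on the recombinase genes Rag1 and Rag2 and on the interleukin 7 receptor gene Il7r. Pou2af1 encodes a coactivator that joins octamer-binding proteins at immunoglobulin and other promoters.

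The study profiled progenitors of the marrow and of the thymus, the organ where T cells form, to describe the cells that seed it. All arrays are labelled C57BL6, both sexes and an age of 1 week, including those titled adult. The populations, in order of development, were HSC (LSKFlt3-CD48-CD150+, labelled stem cells), LSK (LSKFlt3hi IL7R+, labelled seeding progenitors of the thymus), CLP (labelled as a putative seeding progenitor) and pro-B (Pro_B, a B cell progenitor). On the thymic side they were ETP (ETPFlt3hi, the early thymic progenitor), adult ETP (Adult_ETP), DN2 (DN2Kit+) and DN3, of which the last 2 are later steps towards T cells. The arrays form 2 deposit sets with different label styles and different array medians (5.84 to 5.95 for set 2, 5.12 to 5.22 for set 1, in log2), so levels are compared only inside a set. Set 2 holds 3 arrays each of HSC, LSK, ETP, DN3 and pro-B, 4 of CLP and 2 of adult ETP. Set 1 holds 3 arrays each of HSC, LSK, ETP, DN2 and DN3; its labels give marrow for HSC and LSK and thymus for the others, and say that several mice were pooled for each sample. The series calls its replicates biological, but no label ties an array to particular mice, so p-values measure the spread between arrays. A sorted population is a mixture, and fewer cells of a type cannot be told apart here from less RNA per cell.

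The pro-B and T lineage markers followed the labels. The 5 measured of 6 pro-B markers averaged 8.94 to 9.22 on the LSK arrays of set 2, 7.29 to 8.55 on the CLP arrays and 11.55 to 11.61 on the pro-B arrays, and no other array of that set exceeded 6.54. The 8 measured of 9 T lineage markers averaged 10.34 to 10.67 in DN2, at least 11.75 in DN3 of set 1 and 11.10 to 11.39 in DN3 of set 2, against at most 6.12 on any other array. Macrophage markers averaged 5.49 to 5.77 on HSC arrays of set 2 and 5.02 to 6.0 on pro-B arrays. They reached at most 4.88 on any other array of that set, and their part in differences from HSC was not tested. The 8 measured of 9 late granulocyte genes did not follow the labels. Their mean lay over 1.5 above the median of the set on 7 arrays: LSK arrays 1 and 3 of set 1, HSC array 5, CLP arrays 1 and 2 and pro-B arrays 1 and 2 of set 2. Leaving out these 7 arrays was an alternative chosen after seeing the data, and member differences whose call it changed are given below. It leaves 1 LSK array in set 1 and 1 pro-B array, each taken to vary like the arrays of the other populations.

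Promoter sequences are shown because the 4 genes are placed in 1 regulatory network and were called together in several comparisons. RefSeq windows of GRCm38.p6 were found for all 4 genes, and a second one for Ebf1 (start of the searched window at 44619978 on chromosome 11), not printed. Each window searched ran from 250 bases before the annotated start to 50 after it; the stretch printed ends 20 bases after it. Capitals mark matches, on either strand, to any of 5 motifs: GTAAAC (the core bound by FOXO proteins), CCCNNGGG (the core bound by EBF proteins), ATGCAAAT (the octamer), CAGGTG (an E-box of E proteins) and TGACGT (the cyclic AMP response core).
Ebf1 promoter, chr11:44617850-44618119, plus strand: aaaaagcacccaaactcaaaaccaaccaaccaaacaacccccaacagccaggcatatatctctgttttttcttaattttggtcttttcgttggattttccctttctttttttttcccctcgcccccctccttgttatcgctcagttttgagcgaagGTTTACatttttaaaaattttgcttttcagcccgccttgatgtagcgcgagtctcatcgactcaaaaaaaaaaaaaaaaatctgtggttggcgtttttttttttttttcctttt
Pax5 promoter, chr4:44710675-44710944, minus strand: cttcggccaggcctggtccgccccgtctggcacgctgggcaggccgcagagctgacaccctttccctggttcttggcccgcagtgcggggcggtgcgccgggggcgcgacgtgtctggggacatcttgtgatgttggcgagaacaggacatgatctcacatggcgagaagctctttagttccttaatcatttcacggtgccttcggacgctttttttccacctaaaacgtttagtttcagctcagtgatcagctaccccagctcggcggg
Pou2af1 promoter, chr9:51213440-51213709, plus strand: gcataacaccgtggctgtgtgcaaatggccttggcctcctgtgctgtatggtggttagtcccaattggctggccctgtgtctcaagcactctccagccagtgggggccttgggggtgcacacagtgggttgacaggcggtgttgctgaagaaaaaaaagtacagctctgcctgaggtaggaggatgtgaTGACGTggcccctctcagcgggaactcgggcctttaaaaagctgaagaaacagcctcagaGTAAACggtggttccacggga
Foxo1 promoter, chr3:52268087-52268356, plus strand: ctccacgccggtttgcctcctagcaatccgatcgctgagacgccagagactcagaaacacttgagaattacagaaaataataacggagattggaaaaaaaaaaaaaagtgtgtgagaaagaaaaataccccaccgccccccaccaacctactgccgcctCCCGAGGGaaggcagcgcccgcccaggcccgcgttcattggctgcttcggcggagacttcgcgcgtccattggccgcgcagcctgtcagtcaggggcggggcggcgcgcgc
The Ebf1 window holds the FOXO core on the opposite strand, 94 bases before the start. The Pou2af1 window holds it on the gene's own strand, beginning 1 base before the start and running across it. The cyclic AMP response core of that window begins 61 bases before the start. Each distance is counted from the first base of the match. In the Foxo1 window the EBF core lies 91 bases before the start. None of the 5 motifs is in the Pax5 window or in the second Ebf1 window. Over all 32851 windows of this length, 7.89% hold the FOXO core, 13.7% the EBF core, 1.74% the octamer, 20.2% the E-box and 7.51% the cyclic AMP response core. A match is a run of letters, and no binding was measured.

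**Figure D1:**
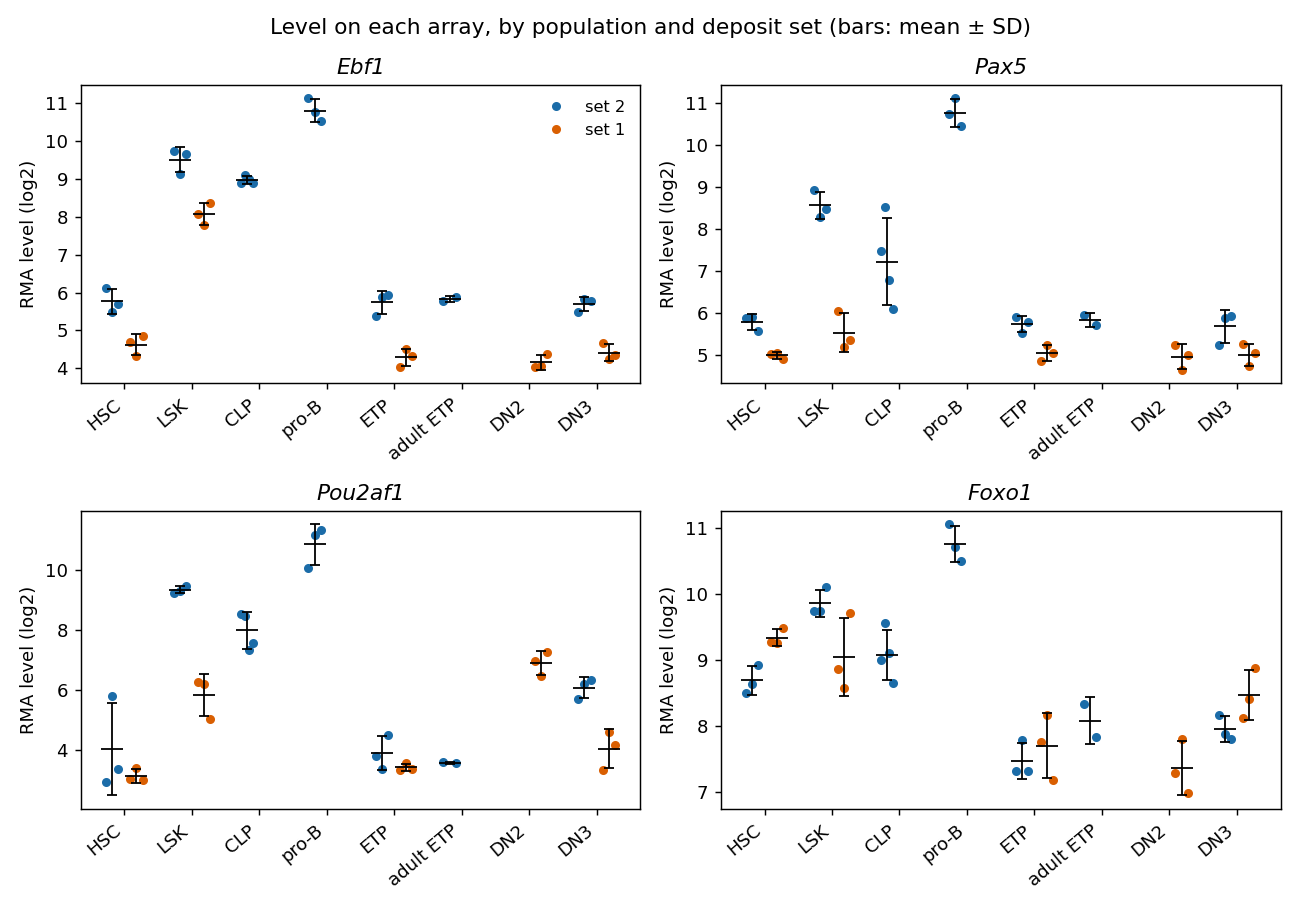
Level of each gene's leading probe set on every array (y axis, RMA value in log2; points), by population in order of development (x axis), with the mean and SD as bars. Set 2 is blue and set 1 orange, and levels are comparable only within a colour. In set 2 Ebf1, Pax5, Pou2af1 and Foxo1 are each highest in pro-B, and Pou2af1 is also raised in DN3. In set 1 Pou2af1 is raised in DN2.

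Ebf1, the factor that starts the B cell programme, was either near its lowest level or far above it. In set 2 the arrays read 6.12, 5.47 and 5.71 in HSC, then 9.73, 9.13 and 9.65 in LSK, 8.89, 8.89, 9.09 and 8.98 in CLP, and 11.12, 10.75 and 10.53 in pro-B (log2 levels). On the thymic side ETP arrays read 5.39, 5.88 and 5.94, adult ETP arrays 5.77 and 5.88, and DN3 arrays 5.50, 5.83 and 5.77. Thus LSK, CLP and pro-B arrays all lay above every array of HSC, ETP, adult ETP and DN3. In set 1 the HSC arrays read 4.69, 4.32 and 4.87 and the LSK arrays 8.07, 7.77 and 8.36. ETP arrays read 4.05, 4.50 and 4.31, DN2 arrays 4.03, 4.06 and 4.38, and DN3 arrays 4.66, 4.24 and 4.35. There too LSK stood alone, and the thymic arrays overlapped those of HSC.

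By mean Ebf1 level, set 2 ran from pro-B (10.80 ± 0.30, SD, n = 3) through LSK (9.50 ± 0.33, n = 3) and CLP (8.96 ± 0.10, n = 4) to adult ETP, HSC, ETP and DN3, whose means lay between 5.70 and 5.83. Pro-B was above LSK by 1.29 ± 0.20 (SE), with an adjusted p of 6.81e-05 in limma, and CLP was above adult ETP by 3.14 ± 0.21, with an adjusted p of 5.26e-11. After adjustment no other neighbours in this order were separated. LSK was above CLP by 0.54 ± 0.19, with an adjusted p of 0.455 in limma. Its unadjusted p was under 0.05, and the arrays of the pair did not overlap. The bottom 4 populations were at most 0.06 apart from step to step. In set 1, LSK was above the next population, HSC, by 3.44 ± 0.20, with an adjusted p of 2.66e-13, and HSC, DN3, ETP and DN2 followed with means between 4.16 and 4.63, none of them separated from its neighbour.

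Pax5, the commitment factor, followed Ebf1 in set 2 at a distance and was close to flat in set 1. Set 2 HSC arrays lay between 5.57 and 5.90, whereas LSK arrays read 8.92, 8.28 and 8.47. The CLP arrays spread widely, at 7.48, 8.51 and 6.79 for arrays 1 to 3 and 6.10 for the array with no number in its title. Pro-B arrays read 10.74, 11.10 and 10.44. The thymic arrays of this set stayed between 5.23 and 5.95 and overlapped HSC. The lowest CLP array was thus 0.15 above the highest thymic one, and the highest CLP array lay within the range of LSK. In set 1, LSK arrays read 6.05, 5.18 and 5.35, and the arrays of the other 4 populations lay between 4.65 and 5.25, so that 1 LSK array fell inside their range.

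The order of Pax5 in set 2 was pro-B (10.76 ± 0.33, SD, n = 3), LSK (8.56 ± 0.33, n = 3), CLP (7.22 ± 1.03, n = 4), adult ETP, HSC, ETP and DN3, the last 4 with means between 5.68 and 5.83. Only pro-B was separated from its neighbour, by 2.20 ± 0.35 over LSK with an adjusted p of 8.53e-05. LSK over CLP, at 1.34 ± 0.33, had an adjusted p of 0.0788, and CLP over adult ETP, at 1.39 ± 0.37, one of 0.0641. In set 1 no neighbours in the order LSK, ETP, DN3, HSC and DN2 were separated, and the largest step was 0.48, from LSK to ETP, with an adjusted p of 0.720.

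Pou2af1, the octamer coactivator, was high in LSK, CLP and pro-B and also above its ETP level in DN2 and, in set 2, in DN3. Set 2 HSC arrays read 2.93, 5.80 and 3.38, of which the second, array 5, stands apart. LSK arrays read 9.26, 9.32 and 9.48. CLP arrays read 8.56, 8.48 and 7.35, with 7.59 for the array with no number, and pro-B arrays 10.09, 11.17 and 11.34. All LSK, CLP and pro-B arrays lay above every other array of the set. ETP arrays read 3.82, 3.38 and 4.51 and adult ETP arrays 3.60 and 3.56, while DN3 arrays read 5.69, 6.22 and 6.35. DN3 did not overlap ETP, and its lowest array lay just below HSC array 5. In set 1, HSC arrays read 3.03, 3.40 and 3.0, LSK arrays 6.26, 6.21 and 5.03, and ETP arrays 3.35, 3.57 and 3.38. DN2 arrays read 6.98, 6.48 and 7.27, above every LSK array, and DN3 arrays 3.34, 4.62 and 4.18. DN2 was the highest population of set 1 for this gene, and DN3 arrays reached down into the range of HSC and ETP.

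In set 2 the order of Pou2af1 by mean was pro-B (10.87 ± 0.68, SD, n = 3), LSK (9.35 ± 0.12), CLP (8.0 ± 0.61, n = 4), DN3 (6.09 ± 0.35), HSC (4.04 ± 1.54), ETP (3.90 ± 0.57) and adult ETP (3.58 ± 0.03, n = 2). Here 2 neighbouring pairs were separated. DN3 was lower than CLP by 1.91 ± 0.46, with an adjusted p of 0.00669 and 4.51% of probe sets called in that comparison. DN3 was higher than HSC by 2.05 ± 0.49, with an adjusted p of 0.0031, although the arrays of the pair overlapped. Calls were common between DN3 and HSC of this set, with 4506 of all 45037 probe sets called. The set 1 order was DN2 (6.91 ± 0.40), LSK (5.83 ± 0.70), DN3 (4.05 ± 0.65), ETP (3.44 ± 0.12) and HSC (3.14 ± 0.22). There the 1 separated pair was DN3, which was lower than LSK by 1.79 ± 0.49, with an adjusted p of 0.0135 and 8.08% of probe sets called.

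Foxo1 varied least over the arrays of set 2, with an SD of 1.11. Set 2 HSC arrays read 8.51, 8.64 and 8.93, LSK arrays 9.75, 9.74 and 10.10, and pro-B arrays 11.06, 10.72 and 10.51. CLP arrays read 9.0, 9.56 and 9.11, with 8.65 for the array with no number. ETP arrays read 7.32, 7.79 and 7.32, adult ETP arrays 8.34 and 7.83, and DN3 arrays 8.18, 7.89 and 7.81. All ETP, adult ETP and DN3 arrays of the set lay below every HSC, LSK, CLP and pro-B array. Set 1 ran differently at the stem cell end, with HSC arrays at 9.28, 9.26 and 9.49 and LSK arrays at 8.87, 8.57 and 9.71, which overlap. ETP arrays read 7.76, 8.17 and 7.19, DN2 arrays 7.30, 7.81 and 6.99, and DN3 arrays 8.13, 8.41 and 8.88. DN3 lay above DN2 on all arrays and overlapped both ETP and LSK.

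By mean, Foxo1 ran in set 2 from pro-B (10.76 ± 0.28, SD, n = 3) through LSK (9.86 ± 0.21), CLP (9.08 ± 0.38, n = 4), HSC (8.69 ± 0.22), adult ETP (8.08 ± 0.36, n = 2) and DN3 (7.96 ± 0.19) to ETP (7.48 ± 0.27). Pro-B over LSK, at 0.90 ± 0.28, had an adjusted p of 0.0395 but was under 2-fold, and no other neighbours passed. Set 1 ran from HSC (9.34 ± 0.13, n = 3) through LSK (9.05 ± 0.59), DN3 (8.47 ± 0.38) and ETP (7.71 ± 0.49) to DN2 (7.37 ± 0.41), and no neighbours were separated.

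A difference was called when its limma adjusted p over all 45037 probe sets was under 0.05 and the difference reached 1 in log2 units (2-fold). The share of all probe sets called in the same comparison is given as the background.

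**Figure D2:**
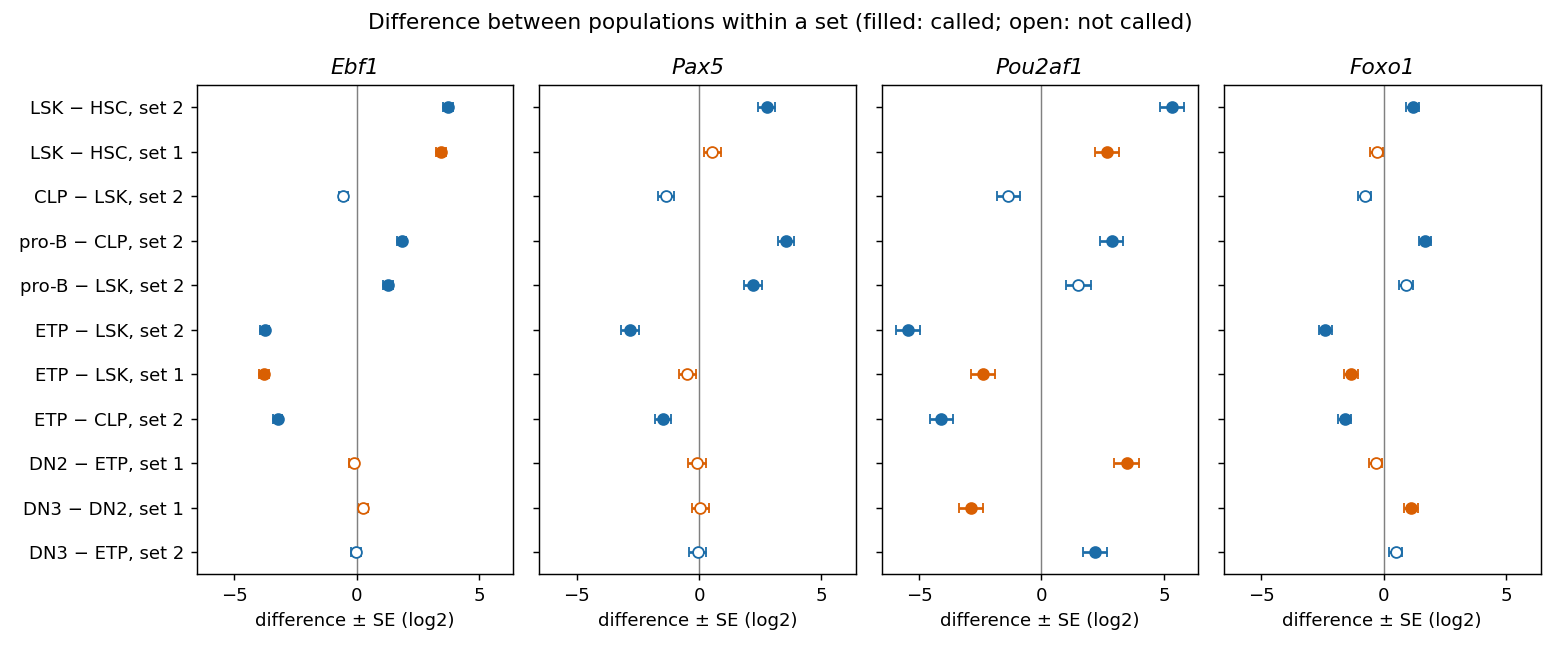
Difference of the leading probe set (x axis, log2, first population minus second) with its SE in 11 comparisons (rows), with set 2 in blue and set 1 in orange. Filled points were called and open points were not; the Pou2af1 point of DN2 against ETP, at 3.47, is the only called rise on the thymic side of set 1 outside Foxo1 in DN3.

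Most of these genes were already higher in LSK, the population after HSC. In set 2 all 4 members were higher in LSK than in HSC, against 7.89% of probe sets called. Ebf1 was 13.3-fold higher, by 3.74 ± 0.20 (SE) with an adjusted p of 4.34e-14, and Pax5 6.82-fold higher, by 2.77 ± 0.35 with an adjusted p of 8.94e-07. Pou2af1 was higher by 5.32 ± 0.49, with an adjusted p of 3.29e-09, and by 6.20 without HSC array 5. Foxo1 was higher by 1.17 ± 0.28, with an adjusted p of 0.00319, a difference that was 0.44 with an adjusted p of 0.210 when both sets were given 1 common value. In set 1, 2 members were higher in LSK, against 7.63% called: Ebf1 by 3.44 ± 0.20 and Pou2af1 by 2.69 ± 0.49, with an adjusted p of 0.000234. Pax5 differed there by 0.54 ± 0.35, with an adjusted p of 0.390, and Foxo1 by -0.29 ± 0.28, with an adjusted p of 0.609. With 1 common value for both sets the LSK over HSC difference was 1.66 for Pax5, with an adjusted p of 0.0005, and 4.0 for Pou2af1. Ebf1 was called in all 17 alternatives of either set, where its difference lay between 3.59 and 4.04 (set 2) or between 3.14 and 3.59 (set 1).

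The difference between the sets was tested directly, as the LSK over HSC difference of set 2 minus that of set 1. It was 2.23 ± 0.50 for Pax5, with an adjusted p of 0.0352, against 0.389% of probe sets called at an adjusted p under 0.05 alone. This call is not firm: it was lost in 10 of 20 alternatives, with an adjusted p of up to 0.123, and the difference itself ranged from 1.87 to 2.64. For Pou2af1 it was 2.63 ± 0.70, with an adjusted p of 0.111, or 3.51 with an adjusted p of 0.0009 without HSC array 5. For Foxo1 it was 1.46 ± 0.39, with an adjusted p of 0.111, and 1.79 with an adjusted p of 0.0238 without LSK array 3. For Ebf1 it was 0.29 ± 0.29. LSK arrays 1 and 3 of set 1, with a late granulocyte mean of 6.86 and 5.91 against 4.22 on array 2, read higher in Pax5 than array 2. Without the arrays of raised granulocyte genes, which leaves LSK array 2 alone in set 1, the value was 2.64 for Pax5, with an adjusted p of 0.0021, and 3.13 for Pou2af1, with an adjusted p of 0.0050.

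Most members were higher in CLP as well. Against HSC, 3 members were higher in CLP, with 6.63% of probe sets called: Ebf1 by 3.19 ± 0.19, Pax5 by 1.43 ± 0.33 with an adjusted p of 0.00266, and Pou2af1 by 3.96 ± 0.46, or 4.84 without HSC array 5. Foxo1 differed by 0.39 ± 0.26, with an adjusted p of 0.367. The Pax5 difference was 0.72, with an adjusted p of 0.121, without the arrays of raised granulocyte genes, which include CLP arrays 1 and 2. Between CLP and LSK directly, 0 members were called in limma, with 0.258% of probe sets called; all 4 had an unadjusted p under 0.05. All 4 mean differences were below 0: -0.54 for Ebf1 (95% interval -0.93 to -0.15), -1.34 for Pax5 (-2.01 to -0.66), -1.36 for Pou2af1 (-2.30 to -0.41) and -0.78 for Foxo1 (-1.31 to -0.26). These intervals are not adjusted over the probe sets and lie below 0, so a lower level in CLP was not detectable after adjustment, which is not to say that the populations are alike.

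The Pax5 level of CLP depended on the array. Arrays 2, 1, 3 and the array with no number read 8.51, 7.48, 6.79 and 6.10, and in the same order the pro-B marker mean read 8.55, 8.38, 7.48 and 7.29. Late granulocyte genes averaged 6.97, 8.36, 6.05 and 5.49 on them. The leading Ebf1 probe set read 9.09, 8.89, 8.98 and 8.89 on them, with an SD of 0.10, but other Ebf1 probe sets spread more: the SD was 1.13 for 1457441_at, 0.63 for 1416302_at and 0.57 for 1416301_a_at, of which the last 2 were also highest on array 2. Without CLP array 2 the Pax5 difference to LSK was -1.77, with an adjusted p of 0.0009, and without the arrays of raised granulocyte genes it was -2.11 for Pax5, with an adjusted p of 0.0003, and -1.88 for Pou2af1, with an adjusted p of 0.0084.

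Pro-B cells carried the highest mean levels. Against CLP all 4 members were higher, with 5.11% of probe sets called: Ebf1 by 1.84 ± 0.19, Pax5 by 3.54 ± 0.33 (11.6-fold), Pou2af1 by 2.87 ± 0.46 and Foxo1 by 1.68 ± 0.26. The arrays of the 2 populations did not overlap for any of them. The Pou2af1 difference was 3.86 without the arrays of raised granulocyte genes, which include 2 of the 3 pro-B arrays. Against LSK 2 members were higher, with 3.67% called: Ebf1 by 1.29 ± 0.20, 2.45-fold, and Pax5 by 2.20 ± 0.35, 4.60-fold. Pou2af1 differed by 1.51 ± 0.49, with an adjusted p of 0.0542, which passed in 7 of 17 alternatives, and Foxo1 by the 0.90 given above. Of the 4 Foxo1 probe sets 2 were called higher than in LSK, the leading one not among them. Without the arrays of raised granulocyte genes the Ebf1 difference was 1.03, with an adjusted p of 0.0545, and that of Pou2af1 1.98, with an adjusted p of 0.0075. Late granulocyte genes averaged 6.45 to 7.37 on pro-B arrays and 4.77 to 5.78 on LSK arrays of the set, and the 5 measured of 6 macrophage markers 5.02 to 6.0 on pro-B arrays, against 4.4 to 4.5 on LSK arrays and 4.27 to 4.88 on CLP arrays. Beyond that alternative, the part of either in the pro-B comparisons was not tested.

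Against the stem cells and the T precursors, pro-B was higher in all 4 members each time. The share of probe sets called was 13.2% against HSC, 4.70% against ETP and 7.09% against DN3. Over HSC the Ebf1 difference was 5.03 ± 0.20, that of Pax5 4.97 ± 0.35 and that of Foxo1 2.07 ± 0.28. Pou2af1 differed by 6.83 ± 0.49, and by 7.71 without HSC array 5. Over DN3, pro-B cells were higher by 5.10 ± 0.20 in Ebf1, 5.08 ± 0.35 in Pax5, 4.78 ± 0.49 in Pou2af1 and 2.80 ± 0.28 in Foxo1. Over ETP the differences were 5.06 in Ebf1, 5.02 in Pax5, 6.96 in Pou2af1 and 3.29 in Foxo1. These comparisons share the pro-B arrays.

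In ETP, the first thymic stage measured, most members were lower than in LSK. In set 2 all 4 members were lower in ETP than in LSK, with 1.04% of probe sets called. Ebf1 was 13.6-fold lower, with a difference of -3.77 ± 0.20 and an adjusted p of 3.42e-13, and Pax5 7.07-fold lower, with -2.82 ± 0.35. Pou2af1 differed by -5.45 ± 0.49 and Foxo1 by -2.39 ± 0.28, with an adjusted p of 1.39e-06. In set 1, 3 members were lower, with 1.59% called: Ebf1 differed by -3.78 ± 0.20, Pou2af1 by -2.40 ± 0.49 and Foxo1 by -1.35 ± 0.28, with an adjusted p of 0.00445. Pax5 differed there by -0.48 ± 0.35, with an adjusted p of 0.720. With 1 common value for both sets the difference was -1.65 for Pax5, with an adjusted p of 0.0033, and -3.92 for Pou2af1. The Foxo1 call of set 1 was lost without LSK array 3 (adjusted p 0.0695), without ETP array 3 (0.0540) and without the arrays of raised granulocyte genes (-0.87, adjusted p 0.397, against a single LSK array). Tested directly, set 2 minus set 1, 0 of the 4 differences were called in limma and 3 had an unadjusted p under 0.05, with 0.0178% of probe sets called; that of Pax5 was -2.34 ± 0.50, with an adjusted p of 0.137, and that of Pou2af1 -3.06. Without the arrays of raised granulocyte genes, again with a single LSK array in set 1, both were called, Pax5 at -2.69 with an adjusted p of 0.0024 and Pou2af1 at -2.68 with an adjusted p of 0.0236.

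ETP were also below CLP in all 4 members, with 0.993% of probe sets called. Ebf1 differed by -3.22 ± 0.19, Pou2af1 by -4.10 ± 0.46 and Foxo1 by -1.60 ± 0.26, with an adjusted p of 0.000299. The Pax5 difference of -1.48 ± 0.33, with an adjusted p of 0.0111, lost its call in 4 of 18 alternatives, among them without ETP array 5 (adjusted p 0.0928) and without the arrays of raised granulocyte genes (-0.71, adjusted p 0.310). Set against HSC of set 2, ETP differed in 1 member, with 7.39% called: Foxo1 was lower, with a difference of -1.22 ± 0.28, with an adjusted p of 0.00234. Of its 4 probe sets 2 were called there, the other being 1416981_at with -1.49, while 1416982_at differed by -0.26 and 1456529_at by 0.21. With the mean of the gene's probe sets the difference was -0.69, under 2-fold, and not called. Ebf1, Pax5 and Pou2af1 differed from HSC by -0.03, -0.05 and -0.14, each with an adjusted p of at least 0.933. Without HSC array 5 the Pou2af1 difference was 0.75, with an adjusted p of 0.335. In set 1 Foxo1 was also the 1 member called between ETP and HSC, with 8.92% of probe sets called. There 3 of its 4 probe sets were called lower, with differences of -1.64 (leading), -1.52 and -1.23, while 1456529_at differed by -0.08. Between adult ETP and ETP 0 members were called in limma, and 0 had an unadjusted p under 0.05, with 0.113% of probe sets called and 2 adult arrays. Foxo1 differed most, by 0.61 ± 0.31 (95% interval -0.02 to 1.24), with an adjusted p of 0.501.

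Beyond ETP, the largest differences were those of Pou2af1. It was 11.1-fold higher in DN2 than in ETP, by 3.47 ± 0.49 with an adjusted p of 1.64e-05, and was the 1 member called, with 2.53% of probe sets called. The difference ranged from 3.29 to 4.11 over 17 alternatives and was called in all of them. Ebf1, Pax5 and Foxo1 differed by -0.13, -0.09 and -0.34. Of the 5 pro-B markers measured 0 were called in either direction, which tells little where 2.53% of all probe sets were called. Their mean lay between 5.23 and 5.61 on DN2 arrays (median 5.56) and between 5.10 and 5.35 on ETP arrays (median 5.32). On LSK arrays of that set it was 6.92 to 7.02. The part of B lineage cells in the Pou2af1 difference was not tested. Mature B and plasma cell markers, 7 measured of 9, averaged 4.15 to 4.34 in DN2 and 4.66 to 4.95 in ETP. Of them 0 were called higher and 2 lower, at the same background of 2.53%.

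Compared with LSK, the marrow progenitor of the same set, DN2 had lower Ebf1 (difference -3.91 ± 0.20) and lower Foxo1 (-1.69 ± 0.28), the 2 members called with 4.86% of probe sets called. Pou2af1 differed by 1.08 ± 0.49, with an adjusted p of 0.238. The Foxo1 difference was -1.21, with an adjusted p of 0.0608, without the arrays of raised granulocyte genes. From DN2 on, DN3 cells had 7.28-fold less Pou2af1, with a difference of -2.86 ± 0.49 and an adjusted p of 0.000416, and more Foxo1, by 1.11 ± 0.28 with an adjusted p of 0.0168. These were 2 members called, with 2.25% of probe sets called. The Foxo1 rise was seen in 1 of its 4 probe sets, the others differing by 0.22, 0.36 and -0.02, and lost its call in 6 of 17 alternatives, among them leaving out DN3 array 3 (adjusted p 0.102), DN2 array 1 (0.0671) or DN2 array 3 (0.115).

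DN3 and ETP gave different counts in the sets, but the difference between the sets was not called when tested directly. In set 2 Pou2af1 was 4.55-fold higher in DN3, by 2.19 ± 0.49 with an adjusted p of 0.00388, the 1 member called with 4.25% of probe sets called. In set 1 it differed by 0.61 ± 0.49, with an adjusted p of 0.594, and 0 members were called in limma and 1, Foxo1, had an unadjusted p under 0.05, with 5.69% called. Set 2 minus set 1, the Pou2af1 difference was 1.58 ± 0.70, with an adjusted p of 0.871 in limma, though its unadjusted p was under 0.05. There 0.00444% of all probe sets were called, so the lack of a call tells little. DN2 was measured in set 1 only.

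**Figure D3:**
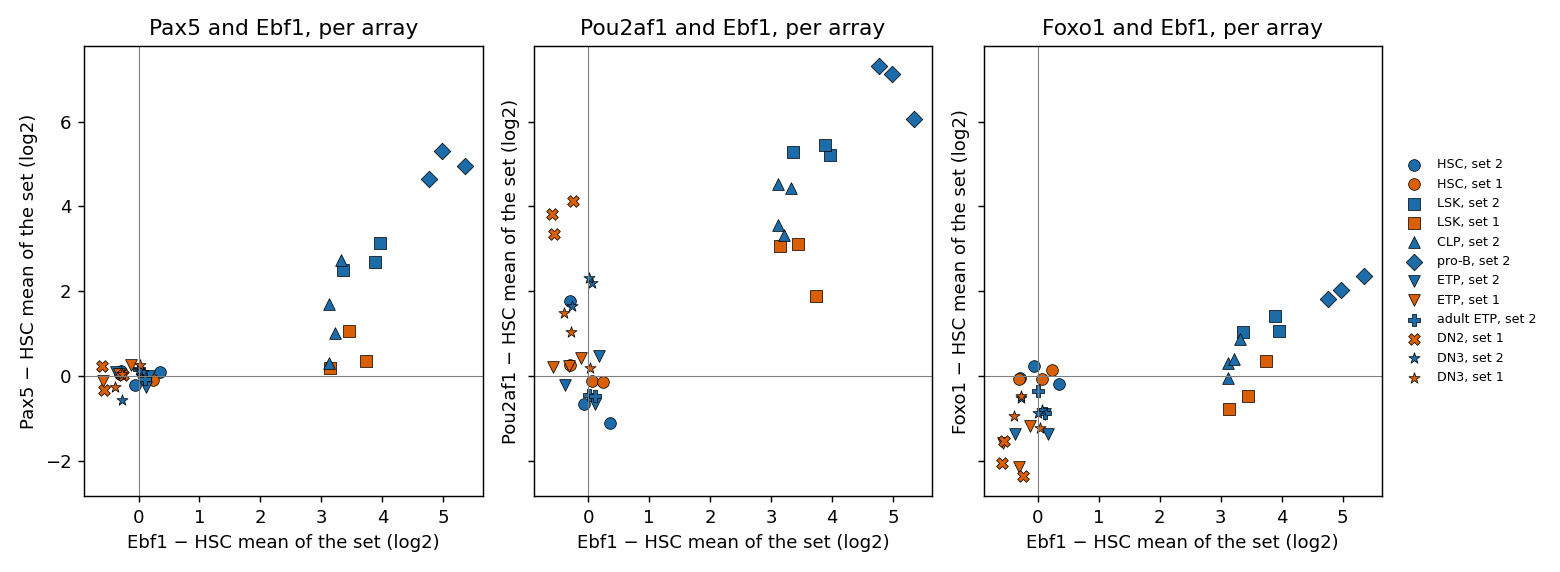
Each array's difference from the HSC mean of its own set (log2) for Pax5, Pou2af1 and Foxo1 (y axes) against that for Ebf1 (x axes), each by its leading probe set; shapes are populations, with set 2 in blue and set 1 in orange. In set 2, LSK and CLP arrays share Ebf1 differences of about 3 to 4 while their Pax5 differences run from 0.31 to 3.13. In set 1, the Pax5 differences of LSK arrays run from 0.19 to 1.06, and DN2 arrays stand apart in Pou2af1.

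Relative to the HSC mean of the set, single arrays show Pax5 beside Ebf1, each by its leading probe set. LSK arrays of set 2 had Ebf1 differences of 3.36 to 3.96 and Pax5 differences of 2.50 to 3.13. The CLP arrays had Ebf1 differences of 3.12 to 3.32 and Pax5 differences of 0.31 to 2.73. LSK arrays of set 1 had Ebf1 differences of 3.14 to 3.74 and Pax5 differences of 0.19 to 1.06. Within set 2, arrays of similar values in the leading Ebf1 probe set thus differed in Pax5 by up to several fold. This does not hold for every Ebf1 probe set: 1457441_at had an SD of 1.13 over the CLP arrays and 1.05 over the LSK arrays of set 2.

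**Figure D4:**
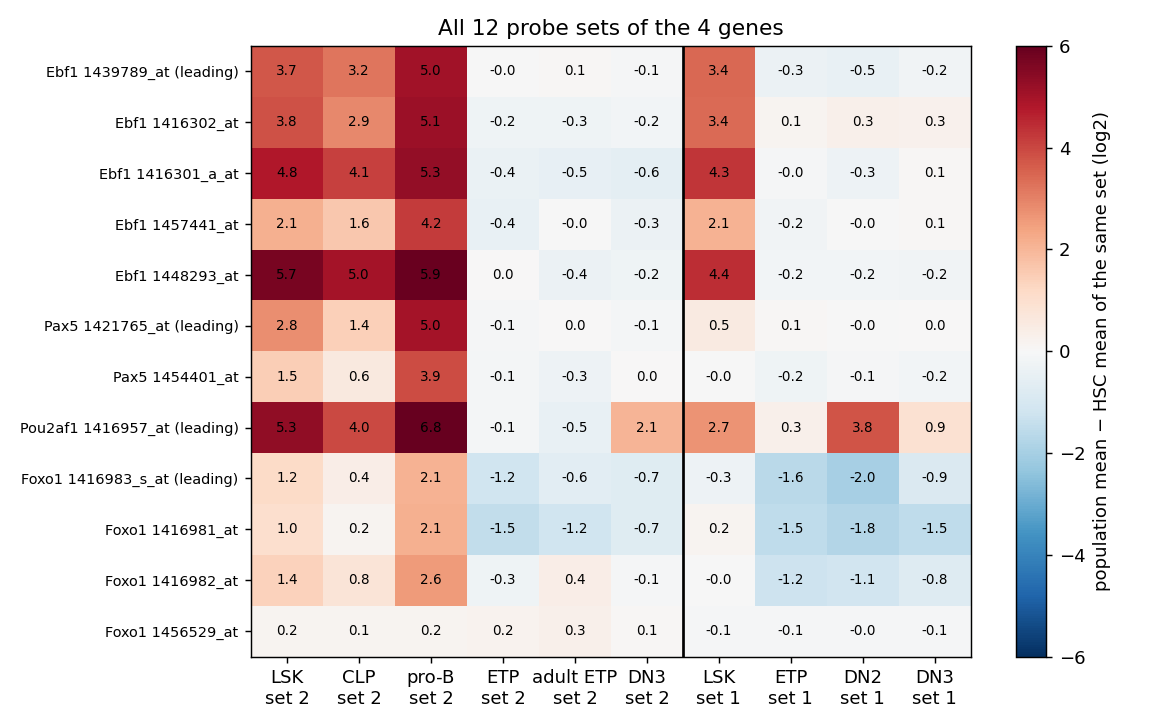
Mean of each population minus the HSC mean of the same set (log2; colour and number) for all 12 probe sets (rows), with set 2 left of the line and set 1 right of it. The 5 Ebf1 probe sets share 1 pattern, and the last Foxo1 probe set differs from HSC by at most 0.33.

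The remaining probe sets mostly moved with the leading ones. All 5 Ebf1 probe sets were higher in LSK than in HSC, by 2.13 to 5.71 in set 2 and by 2.07 to 4.41 in set 1. The size differed more between probe sets at the pro-B step, where 1457441_at was higher than in LSK by 2.07 and 1416302_at by 1.33, while 1416301_a_at and 1448293_at differed by 0.49 and 0.23 and were not called. The second Pax5 probe set, 1454401_at, was higher in pro-B than in LSK by 2.42 and higher in LSK than in HSC by 1.5 in set 2, and differed by -0.01 in set 1. For the CLP it differed from HSC by 0.57 and from ETP, taken as ETP minus CLP, by -0.70, without a call. Of Foxo1, 1416981_at and 1416982_at were called with the leading probe set in the ETP to LSK comparison of both sets, at -2.49 and -1.64 in set 2 and -1.67 and -1.19 in set 1. In pro-B both exceeded LSK, by 1.15 and 1.20, and both were called there, unlike the leading probe set. Probe set 1456529_at stayed flat, with 0.16 for LSK minus HSC in set 2 and 0.04 for ETP minus LSK. Over the 12 probe sets, 11 were higher in LSK than in HSC in set 2 and 6 in set 1, against 7.89% and 7.63% of all probe sets called. In ETP against LSK 11 were lower in set 2 and 9 in set 1, against 1.04% and 1.59%. Probe sets of the same gene are not independent results.

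The early B genes that Ebf1 and Pax5 act on differed between LSK, CLP and pro-B. Of 15 listed, 13 were measured. In LSK against HSC, 10 were higher and 0 lower in set 2, with a median difference of 1.84, and 7 higher and 0 lower in set 1, with a median of 1.05; the median of all probe sets was 0.03 and -0.0035, and 7.89% and 7.63% of them were called. In set 2 the recombinase gene Rag1 was higher by 6.90, its partner Rag2 by 4.99, the adaptor gene Blnk by 4.38 and Cd79a, a chain of the B cell receptor, by 3.17. The same genes were higher in set 1 by 6.58, 5.56, 1.54 and 1.35. Vpreb1, a surrogate light chain gene, was higher by 3.92 in set 1. Set 2 minus set 1, the LSK over HSC difference was larger for Blnk by 2.83 and for the kinase gene Blk by 1.34, both called.

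**Figure D5:**
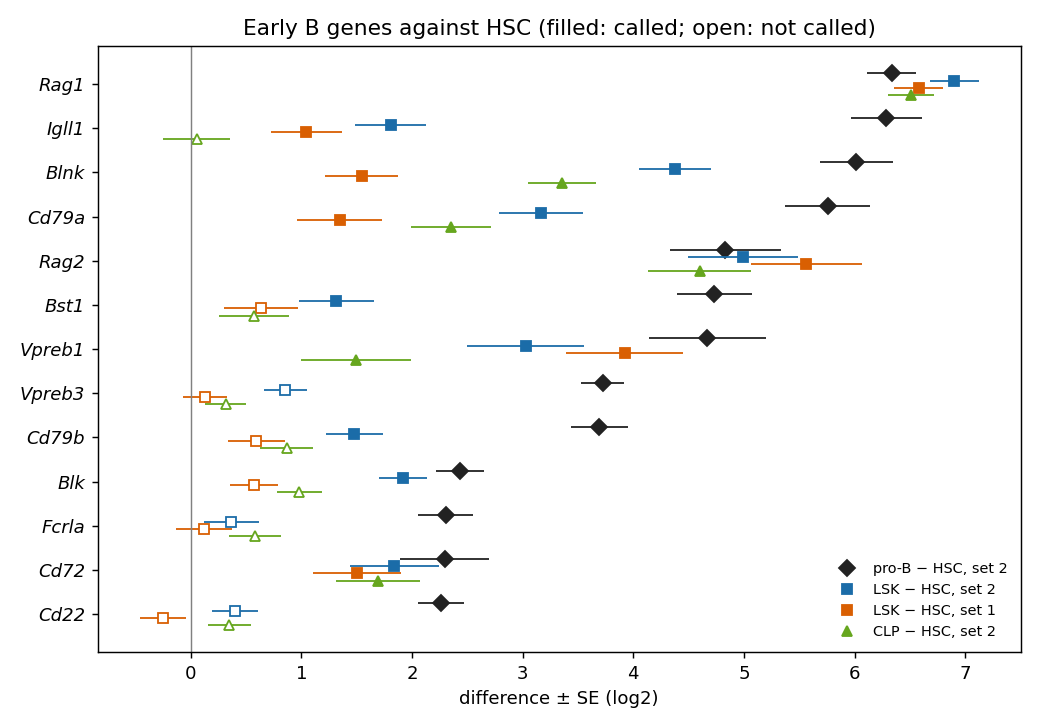
Difference from HSC (x axis, log2, with SE) of the 13 measured early B genes (rows, by their difference in pro-B) in pro-B, LSK of both sets and CLP; filled points were called, open ones were not. Rag1 differs by 6.34 in pro-B, 6.90 in LSK of set 2 and 6.51 in CLP, and Igll1 by 6.29, 1.81 and 0.05.

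Pro-B had 13 of the 13 early B genes higher than HSC, 10 higher than CLP and 8 higher than LSK, with 0 lower in each of these comparisons, where 13.2%, 5.11% and 3.67% of all probe sets were called. Igll1, the other surrogate light chain gene, was higher by 6.23 than in CLP and by 4.48 than in LSK. Bst1, a surface ADP-ribosyl cyclase, was higher by 4.16 and 3.42, Vpreb3 by 3.41 and 2.87, and Cd79a by 3.41 and 2.59. Rag1 and Rag2 were not called between pro-B and either progenitor. In CLP against LSK 1 gene was called, with 0.258% of all probe sets called: Igll1, lower, with a difference of -1.75. In ETP against LSK 8 were lower and 1 higher in set 2, and 6 lower and 1 higher in set 1, with 1.04% and 1.59% of all probe sets called: Vpreb1 differed by -5.05 and -3.22, Rag1 by -4.85 and -3.31, and Bst1 was the higher one, by 1.64 and 3.57. In DN2 against ETP the 1 gene called was Rag1, higher by 3.47, with 2.53% of all probe sets called.

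Genes that Foxo1 activates, 12 measured of 14 listed, partly overlap the early B list in Rag1, Rag2 and Blnk. In LSK against HSC 5 were higher and 2 lower in set 2, and 5 higher and 1 lower in set 1, against 7.89% and 7.63% of all probe sets called. Il7r, whose product is part of the LSK gate and so no finding there, was higher by 7.36 and 6.75, and the chemokine receptor gene Ccr7 by 2.65 and 2.06. S1pr1, which guides exit from tissues, was lower, with a difference of -2.11 and -2.77, and its activator Klf2 was lower in set 2 with a difference of -1.58. In ETP against LSK 5 were lower and 0 higher in set 2, and 4 lower and 0 higher in set 1, against 1.04% and 1.59% of all probe sets. These counts include Il7r, which the LSK gate makes no finding here either; Blnk differed by -4.18 and -1.70. Pro-B exceeded CLP in 3 of the 12, with 5.11% of probe sets called: Blnk by 2.66, Klf2 by 1.89 and the cell cycle inhibitor Cdkn1b by 1.29.

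Of 12 genes that Pax5 holds down in B cells, 10 were measured (Tcf7 and Ly6a were not). Pro-B was lower than LSK in 5 of them and lower than CLP in 4, with 0 higher in either, against 3.67% and 5.11% of all probe sets called. Flt3, a cytokine receptor gene whose product is part of the LSK and HSC gates and so no finding against either, differed from LSK by -2.91, the myeloid antigen gene Cd33 by -2.38, the chemokine gene Ccl3 by -1.57 and the stem cell regulator Lmo2 by -1.18. Notch1, the receptor of T cell commitment, differed by -1.08 from LSK and by -1.21 from CLP. Between CLP and LSK 0 of the 10 were called, which tells little where 0.258% of all probe sets were called. In LSK against HSC 5 were higher and 1 lower in both sets, Flt3 among the higher ones. There 7.89% of all probe sets were called in set 2 and 7.63% in set 1. The receptor gene Csf1r, also on this list, was not called between pro-B and LSK.

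Partners and upstream factors of the members were 20 listed genes, of which 19 were measured (Pou2f1 was not). In LSK against HSC 3 were higher and 1 lower in set 2, and 5 higher and 0 lower in set 1, against 7.89% and 7.63% of all probe sets called. Ikzf1, the Ikaros gene, was higher by 1.73 and 1.26, Irf8 by 1.33 and 3.06, and Ets1 by 1.26 and 1.98. Between CLP and LSK 0 of the 19 were called, with 0.258% of all probe sets called. Pro-B exceeded CLP in 6 and was lower in 1, with 5.11% called: the Ets factor gene Spib was higher by 4.29, Lef1 by 4.17, the Ikaros relative Ikzf3 by 3.45 and Irf4 by 2.71, while Myb differed by -1.19. Tcf3, the E protein that works with Ebf1, was higher by 1.63 and its inhibitor Id3 by 2.61. In DN2 against ETP 3 were higher and 3 lower, with 2.53% of all probe sets called, Ets1 higher by 1.83 and Mef2c lower, with a difference of -3.42. In DN3 against ETP of set 2, where Pou2af1 was also higher, 7 were higher and 2 lower, with 4.25% called, among them Lef1 by 4.46, Ikzf3 by 3.55, Ets1 by 3.0 and Spib by 2.17, and Mef2c with a difference of -5.09.

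Relatives of the members, 10 measured of 12 genes of the Ebf, Pax and Foxo families (Pax2 and Foxo6 were not), gave at most 1 call in each comparison described here. In LSK against HSC 0 were higher in either set and 1 was lower in set 2, Foxo3 with a difference of -1.04, against 7.89% of all probe sets called in set 2 and 7.63% in set 1. Pro-B had 0 higher than CLP and Foxo3 lower, with a difference of -1.04, against 5.11% of all probe sets called. The Foxo3 difference of pro-B from HSC was -1.96, with 13.2% of all probe sets called. In CLP against HSC the 1 called relative was Foxo4, lower, with a difference of -1.02, against 6.63% of all probe sets.

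The genes most like each member were found by the root mean square of the differences, over the 21 arrays of set 2, between 2 genes' values after each was centred on its own mean. Likeness within 1 set rests on few populations, since these arrays share 7 of them. Nearest to Ebf1 were Blnk (0.54), Sdc4 (0.62), Cd79a (0.70), Bfsp2 (0.73) and St6gal1 (0.83), where Ebf1 itself has an SD of 2.09 over these arrays. Blnk averaged 4.12 ± 0.33 in HSC, 8.49 ± 0.17 in LSK, 7.47 ± 0.92 in CLP and 10.13 ± 0.11 in pro-B (SD). Nearest to Pax5 were Gpat3 (0.45), Cd79a (0.50), Bfsp2 (0.58), Cecr2 (0.59) and Cd79b (0.65), with an SD of 1.88 for Pax5. Nearest to Pou2af1 were Blnk (0.96), Cd79a (1.14), Vpreb1 (1.24), Sdc4 (1.32) and Bfsp2 (1.34). These distances are larger, but they are not scaled to a gene's SD, which was 2.77 for Pou2af1. Foxo1 was nearest to Sipa1 (0.46), Sorcs2 (0.48), Hspa2 (0.53), Ptp4a3 (0.53) and Myo1c (0.54), against an SD of 1.11, so none of its 5 neighbours is on the B lineage lists used here.

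The same distance was taken over the 15 arrays of set 1. Of 18189 genes ranked there, Sdc4 was at rank 7 from Ebf1, St6gal1 at 11, Bfsp2 at 20, Cd79a at 23 and Blnk at 30. From Pou2af1, Bfsp2 was at rank 705, Blnk at 2379 and Sdc4 at 17797, in a set that holds DN2. From Pax5, whose SD over set 1 was 0.33, Gpat3 was at rank 1390 and Cd79a at 14010. Sipa1 was at rank 392 from Foxo1.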

How the data were processed

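The authors deposited 1 table of log2 expression values for 36 arrays, made from sorted cells after Trizol extraction and amplification with a NuGEN kit, per the labels. They are RMA values (background correction, normalization and summary of probes), per the submitters' processing notes; the version and the log base are not given in the sources used here, and the values behave as log2. No value was missing and no column lacked a sample. Of 45101 probe sets, 64 controls were left out. The platform annotation names 1 gene for 34945 probe sets and several for 932. There is no read depth here, and precision is limited by how many arrays a population has.

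The model was fitted with limma 3.58.1 in R 4.3.3 (lmFit, contrasts.fit, eBayes) to all 45037 probe sets, with 12 means, 1 for each population in each deposit set, and 24 residual degrees of freedom. All 36 arrays shared the estimate of spread. P-values were Benjamini-Hochberg adjusted over all probe sets. A call needed an adjusted p under 0.05 and a difference of at least 1; tests of a difference between sets needed the adjusted p alone. The fit was tested on simulated data. Sequences are from RefSeq, and Python 3.11.15, pandas 2.3.3, numpy 2.4.6 and matplotlib 3.10.9 were used for summaries and plots.

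Members and lists were chosen with earlier results of these data known. Some listed genes are not reported here. Besides the members, the text names the 5 nearest genes of each and, of each list, up to 4 called genes with the largest differences in each direction, by their leading probe set; other list genes named were chosen after their values were seen. Same-numbered arrays did not deviate together on average (mean correlation 0.011 over 30 pairs in set 1 and -0.004 over 25 in set 2), so arrays were not treated as pairs. No label says whether same-numbered arrays share mice, and this check cannot show that they do not. Alternatives were other set handling, normalization, centring, probe set choice, filtering, fold threshold, array weights, a replicate block, each array left out, and the arrays of raised granulocyte genes left out.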

Additional observations from a re-analysis of the deposited data

Results flagged for a closer look

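In CLP, Ebf1 probe set 1416301_a_at read 9.75 on array 2, far from the other 3 arrays of that population. Its gap to the nearest of them was 0.835 of the whole range, just above Dixon's 95% critical value for 4 samples. Chance alone flags about 1 in 20 groups, and with 4 CLP arrays each of the 12 member probe sets was looked at once. The leading Ebf1 probe set did not stand apart on that array.

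The LSK over HSC difference of Pax5 was larger in set 2 than in set 1 by 2.23 ± 0.50, with an adjusted p of 0.0352 in limma. The call was lost in 10 of 20 alternatives, and only 1 of the 2 Pax5 probe sets was called. LSK exceeded HSC by 2.77 in set 2 and by 0.54 in set 1. Normalization and labelling style differ between the sets and pooling of mice is given for set 1, and these cannot be told apart. Late granulocyte genes were also raised on LSK arrays 1 and 3 of set 1 and on HSC array 5 of set 2.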

How the results depend on the processing

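Of 1544 recomputed member differences, 1485 kept their call or lack of one, 30 lost a call, 29 gained one and 0 reversed; the causes were not tested. The members called in DN3 against DN2, 2 as reported, were 1 with an additive set term, with each set fitted alone and with the mean of the gene's probe sets, and 1 to 2 with single arrays left out. In DN2 against LSK they were 1, not 2, without the arrays of raised granulocyte genes. In DN3 against ETP of set 1 they were 1, not 0, with the additive term. In CLP against LSK, 0 as reported, they were 1 with the mean of probe sets, with the dimmer probe sets left out and with array weights, 2 without the arrays of raised granulocyte genes, and 0 to 1 with single arrays left out. In ETP against HSC of set 2 they were 0, not 1, with the mean of probe sets, and in pro-B against LSK 4, not 2, with the additive term. Members whose LSK over HSC difference differed between sets, 1 as reported, were 2 with the mean of probe sets and without the arrays of raised granulocyte genes, 0 with quantile normalization and with the dimmer probe sets left out, and 0 to 1 with single arrays left out. For ETP against LSK, 0 as reported, they were 1 with the mean of probe sets and 2 with array weights and without the arrays of raised granulocyte genes. The replicate block, with a correlation of -0.0098, changed no member's call.

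Counts over all probe sets moved most in pro-B against CLP, with 871 called without the arrays of raised granulocyte genes and 5990 with no fold threshold, against 2301 as reported, and in adult ETP against ETP, with 374 called with array weights against 51. Each population has 2 to 4 arrays in a set, which bounds the precision.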
